A study of Mus musculus with 16 samples.

Results

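The genes described here carry out glucose uptake and the upper steps of glycolysis, from the glucose transporter to the aldolase that splits the 6-carbon sugar. They were chosen by name, as the 10 genes Slc2a1, Slc2a3, Hk1, Hk2, Gpi1, Pfkl, Pfkm, Pfkp, Aldoa and Aldoc, and not by any measured value. Of these, 9 had a probe set naming only that gene in the platform annotation, with 24 probe sets in all, out of 18194 genes and 45101 probe sets. Gpi1, the glucose-6-phosphate isomerase, had no such probe set and was not analysed here. Where a gene had several probe sets, the one with the highest mean log2 intensity over the 16 arrays led, and the others are described after it.

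The study compared migratory mouse neural crest stem cells before and after exposure to growth factors that instruct them towards a fate. RNA of primary material was hybridised to 16 Affymetrix arrays in 4 groups of 4, which the titles call NCSCs (not primed), Glia, Autonomic (labelled as primed to neurons) and Mesenchymal. The growth medium and the treatment text, which speaks of growth factors, are the same in the labels of all 4 groups, the unprimed one included. Which factors were used and for how long, and the strain and age of the mice, were not found in the labels. Nor is it stated that the 4 arrays of a group are independent cultures, so each p-value here measures only the spread among these arrays, which may be technical. Because RNA was taken in bulk, fewer cells of a type and less RNA per cell cannot be told apart.

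The median intensity of the arrays ran from 8.26 to 8.85, and arrays correlated at 0.896 to 0.949 within groups and 0.898 to 0.948 between them. Neural crest markers were present in all groups, with 8 of 11 above a log2 level of 5 in NCSCs and 9 of 11 in each primed group, though their mean level on single arrays was as low as 4.95 in Autonomic, against 6.14 or more elsewhere. Among them Ngfr, the nerve growth factor receptor used to mark these cells, moved with the groups: its mean log2 level was 9.07 in NCSCs, 7.20 in Glia (adjusted p = 0.0479), 6.32 in Autonomic (0.00554) and 9.39 in Mesenchymal (0.891). Its part in the results below was not tested. Of the markers of the primed fates, some were low in their own group and others were not, against a median gene of 3.89. In the Glia arrays Gfap and Mbp were each at 2.89, S100b at 3.47 and Cdh19 at 3.50. Fabp7 was at 7.22 and Pmp22 at 6.19 there, each with a higher mean in NCSCs (8.67 and 6.72). In the Autonomic arrays Phox2a was at 2.28, Gata3 at 2.29, Th at 2.74, Hand2 at 4.00 and Dbh at 4.17. Tubb3 was at 10.19, Stmn2 at 6.01 and Elavl4 at 5.46 there, against 9.73, 5.59 and 5.22 in NCSCs. In the Mesenchymal arrays Col1a2 was at 10.63, Tagln at 8.67, Col1a1 at 8.07 and Acta2 at 7.01. Prrx1 was at 4.04, Cnn1 at 3.34, Myh11 at 3.25 and Twist2 at 2.46 there. Each of these genes had a higher mean level in Glia or Autonomic than in Mesenchymal. None of the markers of a group's own fate was called against NCSCs in that group, while Col1a2, at 10.73 in Glia against 8.68 in NCSCs, was called in Glia (adjusted p = 0.0335). The group names are used here as labels of treatment. One array stood apart from its label: Autonomic 1 lay at -39.7 on the first principal component, among the NCSCs arrays (-49.6 to -21.2), while the other Autonomic arrays lay at 28.9 to 57.3. Values without it are given for the members' Autonomic results whose call it changed, and for some others.

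Glucose enters most embryonic cells through facilitative transporters of the Slc2a family. Hexokinase phosphorylates it and so traps it, an isomerase turns the product into fructose 6-phosphate, phosphofructokinase commits the sugar to glycolysis, and aldolase cleaves it. The transporter, hexokinase, phosphofructokinase and aldolase are each encoded by several genes whose products differ in affinity, regulation and tissue. Proliferating embryonic cells commonly run glycolysis at a high rate even with oxygen present, and the migratory neural crest is among the cells for which this has been studied.

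The promoters of genes in this pathway are textbook sites for hypoxia-inducible factors, which bind a short core written ACGTG or GCGTG. Promoter windows of 250 bases before the annotated start were read from RefSeq (GRCm38.p6) for 9 of the 10 genes, in 16 windows; Slc2a3 was not matched. The sequences below belong to 3 genes whose arrays were lower in Glia than in NCSCs (Slc2a1, Pfkl and Aldoa) and 2 whose arrays overlapped (Hk2 and Pfkp). Windows of Pfkm, whose arrays were also lower, and of Hk1 and Aldoc, whose arrays also overlapped, are not printed. They are written 5′ to 3′ on the gene's strand, and capitals mark the core in either form on either strand, where CACGT and CACGC are its reverse complements.
Slc2a1 (chr4:119108495-119108744, plus strand): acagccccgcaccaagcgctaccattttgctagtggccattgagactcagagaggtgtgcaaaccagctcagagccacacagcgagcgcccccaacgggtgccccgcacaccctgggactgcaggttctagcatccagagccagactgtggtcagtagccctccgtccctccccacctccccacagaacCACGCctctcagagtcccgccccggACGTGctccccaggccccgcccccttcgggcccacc
Pfkl (chr10:78009808-78010057, minus strand): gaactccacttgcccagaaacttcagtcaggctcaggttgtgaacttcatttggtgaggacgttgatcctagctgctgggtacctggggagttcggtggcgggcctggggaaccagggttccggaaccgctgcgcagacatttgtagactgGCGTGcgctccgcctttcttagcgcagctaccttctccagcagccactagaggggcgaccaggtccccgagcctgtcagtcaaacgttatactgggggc
Aldoa (chr7:126799255-126799504, minus strand, window 2 of 3): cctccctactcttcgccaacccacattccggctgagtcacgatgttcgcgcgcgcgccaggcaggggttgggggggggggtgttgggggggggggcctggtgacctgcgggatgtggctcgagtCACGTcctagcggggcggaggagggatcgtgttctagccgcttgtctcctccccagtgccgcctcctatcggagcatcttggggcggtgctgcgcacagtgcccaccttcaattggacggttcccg
Hk2 (chr6:82774455-82774704, minus strand): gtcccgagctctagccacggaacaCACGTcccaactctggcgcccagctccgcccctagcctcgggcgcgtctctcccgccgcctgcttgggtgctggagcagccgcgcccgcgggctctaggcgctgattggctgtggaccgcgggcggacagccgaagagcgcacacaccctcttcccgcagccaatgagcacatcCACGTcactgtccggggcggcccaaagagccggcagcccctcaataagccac
Pfkp (chr13:6648772-6649021, minus strand): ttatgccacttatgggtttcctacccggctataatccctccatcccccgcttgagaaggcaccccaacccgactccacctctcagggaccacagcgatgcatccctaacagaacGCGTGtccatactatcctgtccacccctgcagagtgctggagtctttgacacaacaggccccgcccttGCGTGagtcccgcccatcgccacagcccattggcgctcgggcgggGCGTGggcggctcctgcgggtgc

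Slc2a1 held 1 ACGTG and 1 GCGTG, Pfkl 1 GCGTG, Aldoa 1 ACGTG, Hk2 2 ACGTG and Pfkp 3 GCGTG, and so every printed window holds the core; they were picked among 16 with these matches known. Over all 16 windows of the members, 12 held it in either form and 4 did not. Those without it were window 1 of Aldoa, window 1 of Hk1, window 4 of Pfkm and the window of Gpi1. Windows 2 and 3 of Aldoa overlap and share 1 match, as do windows 2 and 3 of Pfkm. The 12 windows are therefore not separate sites, and their share was not tested against that of all windows. Of 32851 promoter windows of the same length, 16.6% held ACGTG, 28.2% held GCGTG and 38.6% held either. The longer CACGTG, an E-box that contains ACGTG, was in 6.02% of all windows and in 1 of the 16, window 1 of Pfkm, whose arrays were also lower in Glia. The motif TCACNCCAC was searched as well, and was in 1.05% of all windows and in 1 of the 16, window 1 of Aldoc. All motifs were searched on both strands. A match to these letters is a description of the window and not a measured site of binding.

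Slc2a3 and Pfkl were the members called in Glia against NCSCs, and Pfkl was the one called in Autonomic, all lower. No member was called in Mesenchymal. A change is called here when the adjusted p was under 0.05 in limma's moderated test over all 18194 genes with Benjamini-Hochberg adjustment. Slc2a3 in Autonomic had a larger change than Pfkl (-2.64 against -2.25) but missed this threshold (adjusted p = 0.0579). In Glia against NCSCs, 2 of 9 members were called, both lower, and 5 of 9 had arrays that did not overlap, all lower. Over all genes, 0.511% were called (0.324% lower) and the arrays of 7.18% did not overlap (4.16% lower). In Autonomic against NCSCs, 1 of 9 was called, lower, and 3 of 9 did not overlap, all lower. Over all genes, 0.434% were called there (0.302% lower) and 5.53% did not overlap (3.24% lower). In Mesenchymal against NCSCs, 0 of 9 were called and 0 did not overlap, against 0.022% and 5.69% of all genes; at an unadjusted p under 0.05, 1 member (Pfkp) and 1401 genes passed. The median log2 change of the members was -1.09 in Glia, -0.74 in Autonomic and -0.09 in Mesenchymal, where the median over all genes lay between -0.01 and 0.00. These 3 comparisons share the NCSCs arrays.

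**Figure D1:**
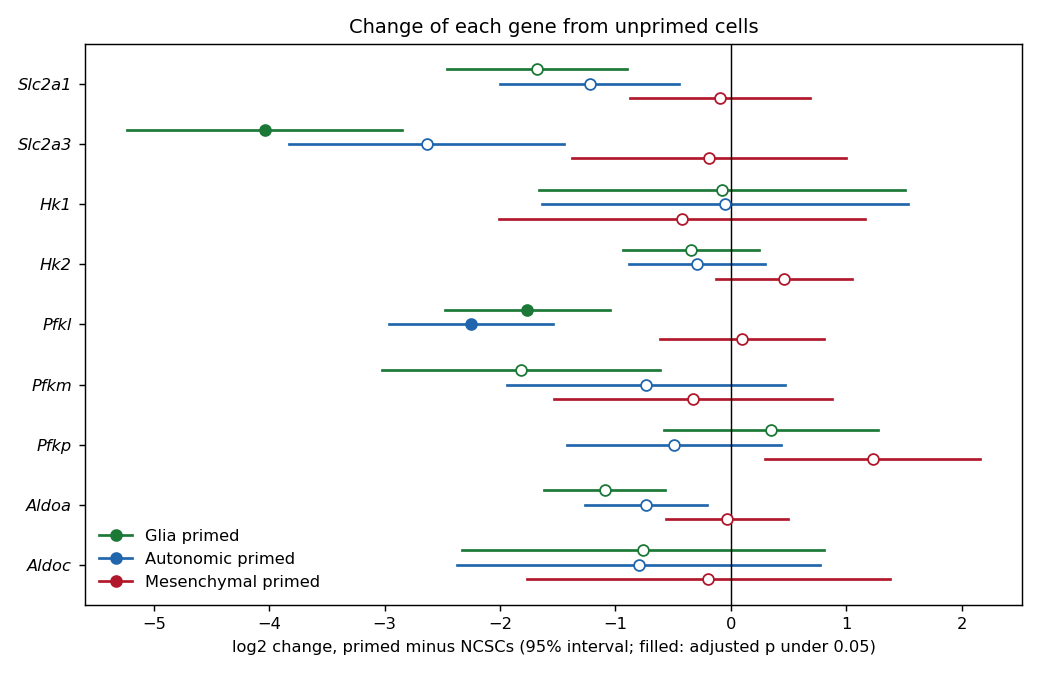
Log2 change of the leading probe set of each of the 9 measured genes in each primed group against NCSCs, with its 95% interval (4 arrays a group), where filled points mark an adjusted p under 0.05. Slc2a3 in Glia (-4.04) and Pfkl in Glia (-1.76) and Autonomic (-2.25) are filled, and the Mesenchymal intervals of all genes but Pfkp cross 0.

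Some other measures differed between these groups. The 3′ to 5′ log2 ratio of the Gapdh control probe sets, used as a sign of RNA quality, was 2.35 ± 0.19 (SD, n = 4) in NCSCs, 2.95 ± 0.39 in Glia, 2.85 ± 0.24 in Autonomic and 2.96 ± 0.22 in Mesenchymal. Gapdh is itself an enzyme of lower glycolysis. The same ratio for actin ran from -0.70 to -0.39 in NCSCs and from -0.24 to -0.07 in Glia. It ran from -0.92 to -0.29 in Autonomic and from -0.40 to -0.08 in Mesenchymal, and was not used as a covariate. With the Gapdh ratio as a covariate, 0 members were called in Glia or Autonomic against NCSCs, although the changes of Slc2a3 (-3.82 in Glia) and Pfkl (-2.01 in Autonomic) were of like size. Xist, the RNA of the inactive X chromosome, had log2 levels of 2.61 to 5.34 in Glia and 6.39 to 10.5 in NCSCs. It spread from 3.15 to 10.6 in Autonomic and from 2.68 to 11.2 in Mesenchymal. With Xist as a covariate, 0 members were called in Glia, and Pfkl was still called in Autonomic (adjusted p = 0.0122). The mean level of 4 neural tube markers ran from 4.22 to 7.88 in NCSCs, 2.39 to 4.52 in Glia, 3.00 to 7.13 in Autonomic and 3.75 to 6.35 in Mesenchymal, with Olig2 near the array floor (2.29 or less). The mean of 5 of 6 erythroid markers ran from 2.67 to 5.06 in NCSCs, 2.52 to 3.18 in Glia, 2.50 to 5.78 in Autonomic and 2.65 to 5.16 in Mesenchymal, with Alas2 at 3.18 or less. The mean of 8 mesenchyme and smooth muscle markers ran from 4.03 to 5.50 in NCSCs (median 4.69) and from 5.97 to 6.82 in Glia (6.22). It ran from 5.30 to 7.25 in Autonomic (6.58) and from 5.31 to 7.18 in Mesenchymal (5.63). The part of these cells and of RNA quality in the members' changes was not tested beyond the covariate fits. Endothelial, macrophage and skeletal muscle lists had 0 genes above a level of 5 in any group. The epithelium list had 2 of 4 above it in NCSCs and 1 of 4 in each primed group. Krt18 of that list was at 6.31 in NCSCs, 5.15 in Glia, 6.81 in Autonomic and 5.02 in Mesenchymal. The part of such cells was not tested either.

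Of the 2 transporters, Slc2a3 fell in Glia, with the largest change of any member there. Slc2a1 was not called in any of the 6 comparisons, though some alternatives called it. Slc2a3 encodes GLUT3, a transporter of high affinity for glucose. Its leading probe set read 9.31, 9.45, 9.54 and 10.46 (log2 intensity) on the NCSCs arrays and 6.95, 4.68, 4.65 and 6.30 on the Glia arrays. The Autonomic arrays read 6.31, 6.86, 8.19 and 6.85 and the Mesenchymal arrays 9.88, 8.73, 10.39 and 9.004. All Glia and Autonomic arrays lay below all NCSCs and Mesenchymal arrays. The mean log2 level fell from 9.69 ± 0.52 (SD, n = 4) in NCSCs to 5.65 ± 1.17 in Glia, a 16.5-fold lower intensity (log2 change -4.04, SE 0.56, adjusted p = 0.00457). In Autonomic the mean was 7.05 ± 0.80 and the change -2.64 (SE 0.56, adjusted p = 0.0579), which missed the threshold. In Mesenchymal the change was -0.19 (95% interval -1.38 to 1.00, adjusted p = 0.964). The Glia call was kept without any single array and was lost with the Gapdh ratio (adjusted p = 0.0852) or Xist (0.0913) as a covariate. In Autonomic the gene was called under 7 of 33 alternatives, among them the mean of all its probe sets (-1.85, adjusted p = 0.0270), and without Autonomic 1 its change was -2.39 (0.0741).

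Slc2a1 encodes GLUT1, the transporter of basal glucose uptake in most embryonic cells. It read 11.84, 12.03, 11.80 and 12.80 in NCSCs and 11.26, 9.82, 10.23 and 10.45 in Glia. In Autonomic it read 11.998, 10.45, 10.40 and 10.73, and in Mesenchymal 12.14, 11.93, 12.18 and 11.86. The Glia arrays all lay below the NCSCs arrays, while in Autonomic the first array stood at the NCSCs level and the other 3 below it. The mean of 12.12 ± 0.47 (SD, n = 4) in NCSCs compared with 10.44 ± 0.60 in Glia (log2 change -1.68, SE 0.36, adjusted p = 0.0618) and 10.89 ± 0.75 in Autonomic (-1.22, adjusted p = 0.204). Neither was called. Without Autonomic 1 both were, at -1.68 (adjusted p = 0.0152) in Glia and -1.59 (0.0228) in Autonomic. The mean of its probe sets was called in Glia as well (-1.84, adjusted p = 0.0369). Of the 33 alternatives, 8 called Slc2a1 in Glia and 1 called it in Autonomic. In Mesenchymal the change was -0.09 (95% interval -0.87 to 0.69).

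**Figure D2:**
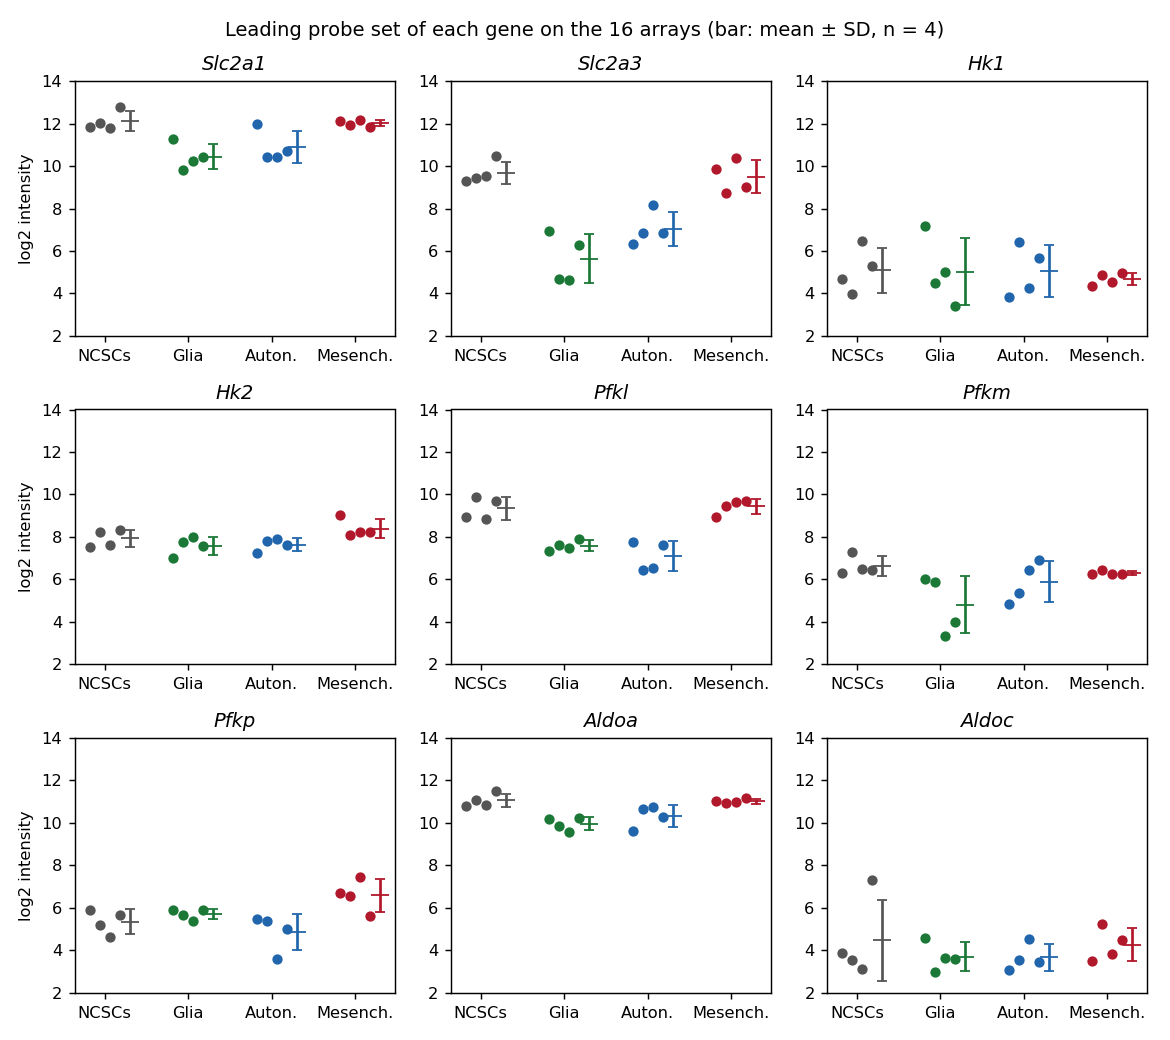
Log2 intensity of the leading probe set of each of the 9 measured genes on the 16 arrays, 1 point per array in the order of the replicate numbers, with the group mean ± SD (n = 4) beside the points. In Slc2a3 and Pfkl the Glia and Autonomic points lie below all NCSCs and Mesenchymal points, and in Slc2a1 the first Autonomic array (11.998) lies with the NCSCs arrays.

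The hexokinases did not pass the test in any of the 6 comparisons. Hk2, the hexokinase that is typically induced in growing cells, read 7.54, 8.22, 7.64 and 8.33 in NCSCs and 7.01, 7.78, 8.002 and 7.57 in Glia. The Autonomic arrays read 7.23, 7.81, 7.91 and 7.61 and the Mesenchymal arrays 9.03, 8.09, 8.23 and 8.25. The log2 change from NCSCs was -0.35 in Glia (95% interval -0.93 to 0.24), -0.30 in Autonomic (-0.88 to 0.29) and 0.46 in Mesenchymal (-0.12 to 1.05). The Mesenchymal arrays all lay above those of Glia and of Autonomic, with differences of 0.81 and 0.76 that were not called (adjusted p = 0.491 and 0.422). Hk1, the widely expressed hexokinase, had dim and scattered probe sets: its leading one ran from 3.40 to 7.17 within Glia alone and had a mean of 4.96 over the 16 arrays. Its changes from NCSCs were -0.08, -0.05 and -0.42 in Glia, Autonomic and Mesenchymal, each with an SE of 0.74 (adjusted p = 0.988, 0.993 and 0.929), and the sign of the first 2 turned under housekeeping centring. The 95% interval of its change in Glia ran from -1.66 to 1.51.

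Among the 3 phosphofructokinase genes, Pfkl fell in Glia and Autonomic. Pfkl encodes the liver-type subunit of the enzyme that commits fructose 6-phosphate to glycolysis. Its arrays read 8.94, 9.88, 8.85 and 9.70 in NCSCs, 7.32, 7.61, 7.47 and 7.92 in Glia, 7.77, 6.44, 6.53 and 7.62 in Autonomic and 8.94, 9.44, 9.67 and 9.70 in Mesenchymal. Every Glia and Autonomic array lay below every NCSCs and Mesenchymal array. From a mean of 9.34 ± 0.52 (SD, n = 4) in NCSCs, the level fell to 7.58 ± 0.26 in Glia, 3.39-fold (log2 change -1.76, SE 0.33, adjusted p = 0.0342). In Autonomic it fell to 7.09 ± 0.70, 4.77-fold (-2.25, SE 0.33, adjusted p = 0.00719). In Mesenchymal the change was 0.09 (95% interval -0.62 to 0.81). The Glia call was lost under 15 of 33 alternatives, including the omission of NCSCs 1, NCSCs 2, NCSCs 4 or any Glia array, with adjusted p up to 0.257. The Autonomic call was kept without any single array, Autonomic 1 included (-2.48, adjusted p = 0.00238), and was lost with only the groups compared in the fit (0.114) or the Gapdh ratio as a covariate (0.0944).

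Pfkm, the muscle-type subunit, read 6.30, 7.31, 6.47 and 6.47 in NCSCs and 6.04, 5.87, 3.35 and 4.00 in Glia. The Autonomic arrays spread from 4.86 to 6.94, and the Mesenchymal arrays lay between 6.26 and 6.42. The Glia arrays lay below the NCSCs arrays but were split into a higher and a lower pair, and the change of -1.82 (SE 0.56) was not called (adjusted p = 0.234). The change in Autonomic was -0.73 (95% interval -1.94 to 0.47) and in Mesenchymal -0.33 (-1.53 to 0.88). Without Autonomic 1 the Autonomic change was -0.39.

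Pfkp, the platelet-type subunit, was not called in any comparison. It read 5.92, 5.21, 4.63 and 5.68 in NCSCs, 5.88, 5.66, 5.38 and 5.91 in Glia, 5.46, 5.37, 3.62 and 5.03 in Autonomic and 6.71, 6.58, 7.47 and 5.60 in Mesenchymal. Only Mesenchymal arrays exceeded 6 on this leading probe set. The second Pfkp probe set also exceeded 6 on NCSCs 3 (6.20) and Glia 2 (7.47). On the leading probe set, changes from NCSCs were as follows. The log2 change was 0.35 in Glia (95% interval -0.58 to 1.28), -0.49 in Autonomic (-1.42 to 0.44) and 1.23 in Mesenchymal (0.30 to 2.16, unadjusted p = 0.0130, adjusted p = 0.528 in limma). None was called.

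Aldoa, the aldolase of most tissues, was among the brightest members. It read 10.81, 11.09, 10.84 and 11.50 in NCSCs, 10.18, 9.88, 9.59 and 10.21 in Glia, 9.60, 10.67, 10.75 and 10.26 in Autonomic and 11.04, 10.92, 10.97 and 11.18 in Mesenchymal. The Glia and Autonomic arrays lay below the NCSCs arrays, in Autonomic by a gap from 10.75 to 10.81. The change was -1.09 in Glia (SE 0.25, adjusted p = 0.0756) and -0.74 in Autonomic (SE 0.25, adjusted p = 0.283), and neither was called. Without Autonomic 1 the Glia change was called (adjusted p = 0.0206), and the Autonomic change was -0.50 (0.379). In Mesenchymal the change was -0.03 (95% interval -0.56 to 0.49). Aldoc, the brain-type aldolase, was dim on most arrays. Its NCSCs arrays read 3.87, 3.56, 3.14 and 7.30, so that NCSCs 4 alone was high, and the arrays of the primed groups ran from 2.98 to 5.24. Its changes of -0.76 in Glia, -0.80 in Autonomic and -0.19 in Mesenchymal were not called (adjusted p = 0.803, 0.798 and 0.973). Without NCSCs 4 these became 0.18, 0.14 and 0.75.

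The 24 probe sets were also fitted beside all 45101, with p-values adjusted over those. In Glia 6 of 24 were called and 20 were lower than in NCSCs, in Autonomic 3 were called and 20 were lower, and in Mesenchymal 0 were called and 13 were lower. Of all probe sets, 0.286%, 0.275% and 0% were called in these 3 comparisons. At an unadjusted p under 0.05 in Mesenchymal, the leading probe set of Pfkp and the dimmest of Pfkl passed. All 4 probe sets of Slc2a3 were lower in Glia, by 4.04, 3.65, 2.46 and 1.37 on the log2 scale, and the first 3 of them were called. The first 2 have names ending in _s_at or _x_at, which mark probes that can match other transcripts. The one of these 3 without such an ending fell by 2.46 (adjusted p = 0.0480). In Autonomic the leading Slc2a3 probe set was not called (-2.64, adjusted p = 0.0792), while the second was (-2.46, adjusted p = 0.0498). The 3 Slc2a1 probe sets had changes of -1.68, -2.06 and -1.77 in Glia and -1.22, -1.26 and -0.91 in Autonomic, and none was called. The 2 brighter Pfkl probe sets fell in both groups, the second by 1.80 in Glia and 2.02 in Autonomic. The dimmest Pfkl probe set, with a mean level of 3.89, did not follow them: its change was 0.17 in Glia and -0.02 in Autonomic, and in Mesenchymal it was 1.29 (unadjusted p = 0.000499, adjusted p = 0.281). All 5 Aldoa probe sets are of the _x_at kind. The 4 bright ones had changes of -1.44 to -0.85 in Glia, of which 1 was called (-1.44, adjusted p = 0.0238), and the dim one had -0.31. In Mesenchymal the leading Pfkp probe set (mean level 5.63) had 1.23, the second (5.55) 0.76 and the dimmest (3.72) -0.35. The second Hk1 probe set (4.13) had changes of -0.73, 0.03 and 0.21 in Glia, Autonomic and Mesenchymal. The second of Aldoc (1.67) had 0.64, 0.05 and 0.09. None of these Pfkp, Hk1 and Aldoc changes was called.

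**Figure D3:**
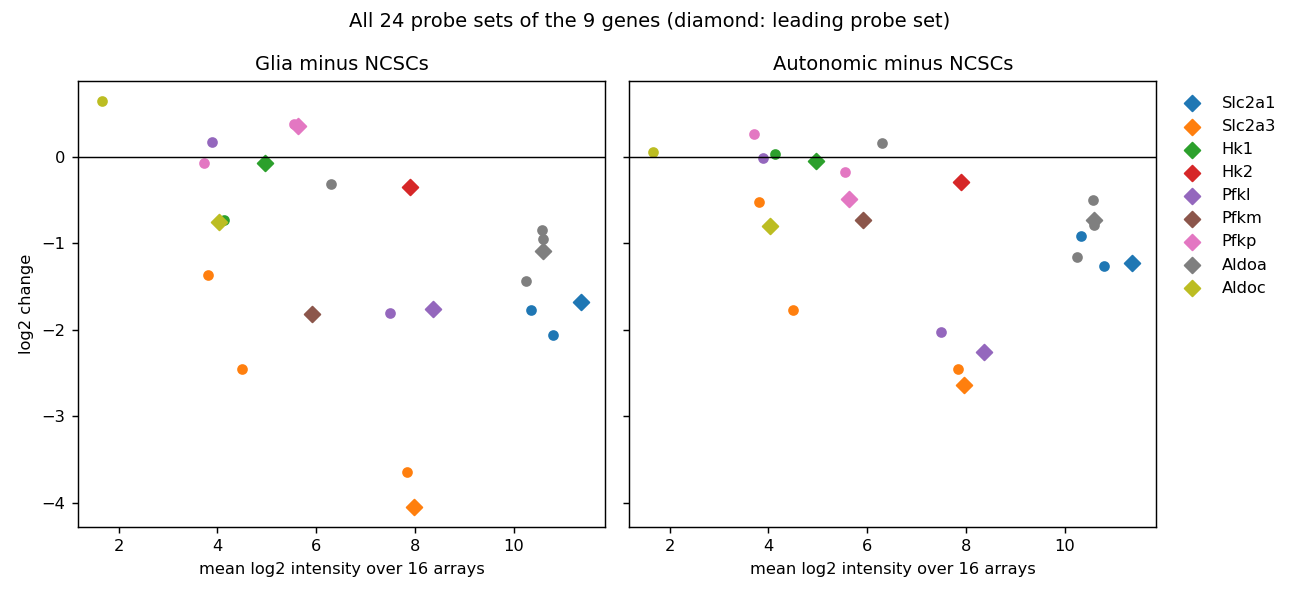
Log2 change in Glia (left) and Autonomic (right) against NCSCs for all 24 probe sets of the 9 genes, against their mean log2 intensity over 16 arrays, coloured by gene with the leading probe set as a diamond. The Slc2a3 probe sets spread from -4.04 to -1.37 in Glia, and the dimmest Pfkl probe set (0.17) lies apart from the other Pfkl points.

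Isoforms of 1 step can change unequally, which was read from the difference of their log2 intensities on the same array. Such a difference does not compare the amounts of the isoforms, since probe sets differ in efficiency. Its change between groups shows unequal change of the 2 probe sets. Probe sets of 1 gene also changed unequally, in Glia from -4.04 to -1.37 for Slc2a3 and from -1.80 to 0.17 for Pfkl. Unequal change of the isoforms could therefore not be told apart from unequal response of their probe sets. Over 6 pairs and 3 primed groups, 18 tests were made by exact two-sided permutation of 4 against 4 arrays, where the smallest p possible is 0.0286. The difference of 4 tests reached that p with arrays that did not overlap, and after adjustment over the 18 tests 0 passed (lowest adjusted p = 0.129).

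In Glia, Slc2a1 minus Slc2a3 was 4.79 ± 0.69 (SD, n = 4) against 2.43 ± 0.15 in NCSCs. The leading probe set of Slc2a3 was thus lower by 2.36 more than that of Slc2a1 (exact permutation p = 0.0286). This difference was 1.04 with the mean of all probe sets of each gene and 0.78 with cross-matching probe sets left out (exact permutation tests, adjusted p = 0.0857 and 0.214). Pfkl minus Pfkp was 1.87 ± 0.30 in Glia and 2.22 ± 0.80 in Autonomic against 3.98 ± 0.70 in NCSCs, differences of -2.11 and -1.76 (exact permutation p = 0.0286 for each). With the mean of all probe sets the difference in Glia was -1.35. Pfkm minus Pfkp was -0.89 ± 1.25 in Glia against 1.28 ± 0.82 in NCSCs, a difference of -2.17 (exact permutation p = 0.0286). In Autonomic, Pfkl minus Pfkm differed from NCSCs by -1.52 (exact permutation p = 0.114) and by -2.09 without Autonomic 1, and Slc2a1 minus Slc2a3 by 1.41 (exact permutation p = 0.143) and by 0.80 without that array. Pfkm minus Pfkp there differed by -0.24 (exact permutation p = 0.80), and by 0.30 without Autonomic 1. In Mesenchymal, the same 3 pairs as in Glia differed from NCSCs by 0.10, -1.14 and -1.56 (exact permutation p = 0.743, 0.0857 and 0.0571). With the mean of all probe sets these differences in Mesenchymal were -0.11, -0.096 and -0.87. The hexokinase and aldolase pairs had differences between -0.89 and 0.27 in the 3 groups (exact permutation p of 0.286 or more).

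**Figure D4:**
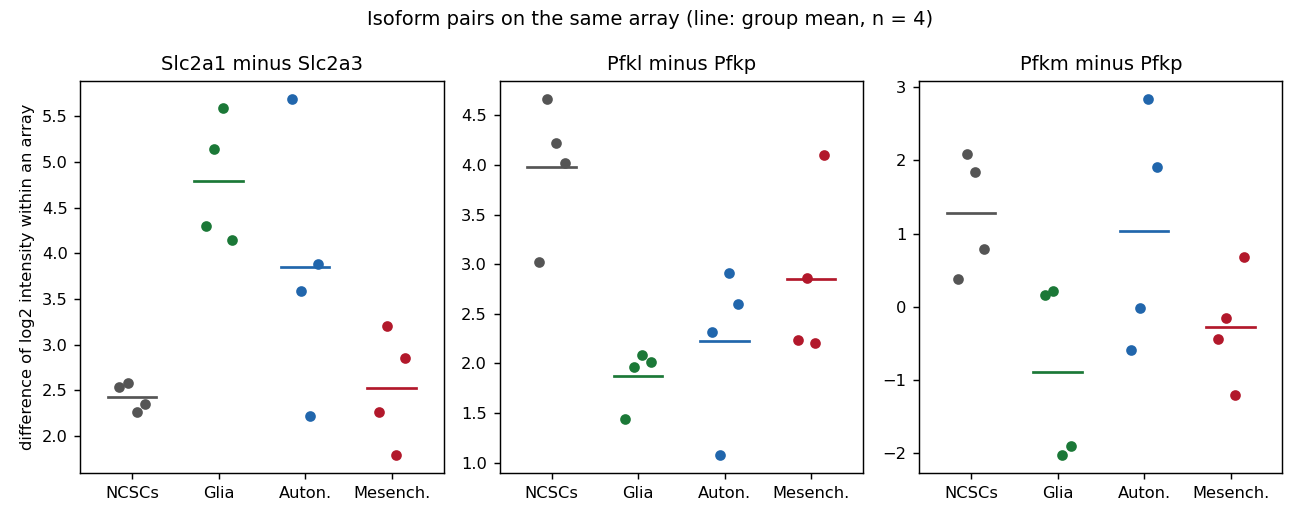
Difference of log2 intensity between isoforms on the same array, for Slc2a1 minus Slc2a3, Pfkl minus Pfkp and Pfkm minus Pfkp, with 1 point per array and a line at the group mean (n = 4). The Glia points do not overlap the NCSCs points in any panel, with means of 4.79 against 2.43, 1.87 against 3.98 and -0.89 against 1.28.

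Set against each other, the primed groups differed in the members that had separated from NCSCs. Slc2a3 was lower in Glia than in Mesenchymal by 3.85 on the log2 scale (adjusted p = 0.00917), and Pfkl was lower by 1.86 (0.0352). Pfkl was lower in Autonomic than in Mesenchymal by 2.35 (adjusted p = 0.00530). In Glia against Mesenchymal 2 of 9 members were thus called, both lower, against 0.225% of all genes (0.154% lower), and 6 did not overlap, all lower, against 4.55% (2.46% lower). In Autonomic against Mesenchymal 1 of 9 was called, lower, against 0.346% of all genes (0.209% lower), and 5 did not overlap, all lower, against 4.17% (2.08% lower). Without Autonomic 1, 2 of 9 members and 141 genes were called in that comparison, with Slc2a1 (-1.50) called beside Pfkl. Between Glia and Autonomic 0 members were called (0.011% of genes) and 0 did not overlap (2.96%). At an unadjusted p under 0.05, 1 member (Slc2a3, 2.65-fold lower in Glia) and 1135 genes passed in that comparison. The Pfkl difference between Glia and Mesenchymal lost its call without any 1 of the 8 arrays of those groups and under 3 other alternatives, with adjusted p up to 0.133.

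The order of mean levels was NCSCs, Mesenchymal, Autonomic, Glia for Slc2a1, Slc2a3, Pfkm and Aldoa. For Pfkl it was Mesenchymal, NCSCs, Glia, Autonomic. Of the neighbours in these orders, the NCSCs and Glia groups of Pfkl differed beyond their spread (1.76, adjusted p = 0.0342). For Slc2a3 and Aldoa, the arrays of the Mesenchymal and Autonomic neighbours did not overlap, with differences of 2.45 and 0.70 that were not called (adjusted p = 0.102 and 0.397). The other neighbours overlapped. For Hk2 the order was Mesenchymal, NCSCs, Autonomic, Glia, for Pfkp Mesenchymal, Glia, NCSCs, Autonomic, for Hk1 NCSCs, Autonomic, Glia, Mesenchymal and for Aldoc NCSCs, Mesenchymal, Glia, Autonomic, and all neighbours in these overlapped.

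The rest of the pathway was read from lists chosen with earlier results of these data known. Of 12 measured genes of lower glycolysis and lactate export, 1 was called in Glia and 1 in Autonomic against NCSCs, both lower, and 0 in Mesenchymal. Over all genes, 0.511%, 0.434% and 0.022% were called in these comparisons. The called gene was Tpi1 both times, the isomerase that follows aldolase, with log2 changes of -1.54 in Glia (adjusted p = 0.00392) and -1.10 in Autonomic (0.0327). The Glia call of Tpi1 was kept under all 33 alternatives and the Autonomic call under 21. The list's median change was -0.62 in Glia, -0.66 in Autonomic and 0.16 in Mesenchymal, with 11, 12 and 3 of 12 genes lower. The median over all genes was -0.006, 0.004 and -0.006. Against Mesenchymal, 4 of the 12 were called in Autonomic and 1 in Glia, all lower, where 0.346% and 0.225% of all genes were called. Of 8 transcription factors known to act on glycolysis genes, 1 changed: Mycn fell in Autonomic by 2.07 (adjusted p = 0.00719), and its change in Glia was -0.27 (0.832). The Mycn call was kept under 31 of 33 alternatives. The other glucose transporters and upper-step enzymes (12 measured), the regulators of the upper steps (8), the pentose phosphate pathway (6), the hexosamine pathway (5) and the glycogen and polyol branches (8) had 0 genes called in each of the 3 comparisons.

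The genes whose pattern over the 16 arrays was most like that of the called members were named from the 9096 genes at or above the median level. For Slc2a3 they were Sqle (Pearson r = 0.921), Fdps (0.921) and Aldoa (0.913). For Pfkl they were Insig1 (0.937), Idh1 (0.909) and Cyb5b (0.908).  These correlations are descriptions, and the arrays of a group share its treatment. With group means removed, Slc2a3 and Aldoa correlated at 0.657 over the 16 arrays and Slc2a3 and Slc2a1 at 0.301, against 0.833 for the latter with groups left in.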

How the data were processed

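RNA of 16 samples in 4 groups of 4 was measured on Affymetrix arrays, with groups and replicate numbers taken from the titles. The deposited intensity values were made by the authors with RMA, which corrects background, normalizes between arrays and summarises probes, per the submitters' processing notes, with no version given. The deposited intensities run from 1.49 to 31600, a linear scale, so log2 was taken here with no offset. Scanner files were not used here. Arrays give no read depth, and their number limits the precision.

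Of 45101 probe sets, 34958 named 1 gene symbol in the platform annotation, 932 several and 9211 none. Of the first, 99.4% matched the GRCm38.p6 gene table. Each of the 18194 genes was represented by its probe set of highest mean. Group means were fitted to all 16 arrays with limma 3.58.1 in R 4.3.3 (lmFit, eBayes, 12 residual degrees of freedom), with two-sided tests adjusted over all genes by Benjamini-Hochberg and called under 0.05. In a simulated Glia against NCSCs comparison over 18194 genes, 9, 27, 41 and 47 of 50 genes were called at log2 changes of 1, 2, 3 and 4, and 8 of 132 calls were false. Alternatives covered scaling, filters, probe set choice, model settings, covariates and each array left out.

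Members, lists and alternatives were chosen with earlier results of these data known. All members are named, with the called genes of the other lists against NCSCs and, for each called member, the 3 genes most like it.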

Additional observations from a re-analysis of the deposited data

Results flagged for a closer look

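Pfkm on the array Mesenchymal 2 read 6.42, against 6.26 to 6.28 on the other 3 arrays of its group, a gap that is a large share of a narrow range. It was the 1 array to stand apart among 36 sets of 4 arrays (9 genes in 4 groups), and chance sets about 1 in 20 such groups apart. The change of a gene from NCSCs differed between primed groups, by limma's test of the difference with adjusted p, in 3 cases. For Slc2a3 the difference of Glia from Mesenchymal was -3.85 on the log2 scale (adjusted p = 0.00917, lower in 4 of 4 arrays). For Pfkl it was -1.86 (adjusted p = 0.0352), and for Pfkl in Autonomic against Mesenchymal it was -2.35 (adjusted p = 0.00530), again lower in 4 of 4 arrays each.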

How the results depend on the processing

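Of 54 member changes, 6 were called. Over 33 alternatives, 0 of these 6 changed sign and each lost its call under at least 1. Of the 48 others, 15 changed sign and 8 were called under at least 1. The cause of the shifts below was not tested.

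Member counts in Glia against NCSCs (2) were 1 with the replicate block, quantile normalization, cyclic loess, housekeeping centring or only the groups compared, 0 with the Gapdh ratio or Xist as a covariate, and 4 with the eBayes trend or array weights. In Autonomic against NCSCs (1) they were 2 with either filter on dim genes, the mean of all probe sets, log2 of the value plus 16 or the eBayes trend, and 0 with only the groups compared or the Gapdh ratio. In Glia against Mesenchymal (2) they were 1 with the replicate block, housekeeping centring or only the groups compared, and 0 with Xist. In Autonomic against Mesenchymal (1) they were 2 with the mean of all probe sets and 0 with only the groups compared. Leaving out single arrays gave 1 to 4, 1 to 2, 1 to 4 and 1 to 2 in these 4 comparisons.

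Over all genes, the 93 called in Glia against NCSCs became 52 with the replicate block, 61 with housekeeping centring, 149 with array weights, 60 with only the groups compared, 30 with the Gapdh ratio and 26 with Xist (25 without NCSCs 4 to 168 without Autonomic 1). The 79 in Autonomic became 17 with only the groups compared and 33 with the Gapdh ratio (31 without NCSCs 4 to 237 without Autonomic 1). The 4 in Mesenchymal became 0 with log2 of the value plus 16 or only the groups compared, 1 with median centring, the trend, the robust fit, the Gapdh ratio or Xist, 2 with quantile normalization or housekeeping centring, 7 with a log2 filter of 5 and 9 with array weights (single arrays 0 to 3). The 2 of Glia against Autonomic became 0 with only the groups compared (single arrays 2 to 7). The 41 of Glia against Mesenchymal became 22 with the replicate block, 62 with array weights and 21 with Xist (single arrays 14 to 68). The 63 of Autonomic against Mesenchymal became 26 with only the groups compared (single arrays 36 to 141). Housekeeping centring, on 11 genes, moved the median of all genes by 0.19 in Glia, 0.21 in Autonomic, 0.10 in Glia against Mesenchymal and 0.12 in Autonomic against Mesenchymal. It gave 40 higher and 21 lower in Glia (34 and 59 before) and 36 and 27 in Autonomic (24 and 55 before).

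Reversed signs were all of changes not called. Hk1 turned in Glia with housekeeping centring (0.12), log2 of the value plus 16 (0.018) and Xist (0.80), and in Autonomic with quantile normalization (0.014), cyclic loess (0.012), housekeeping centring (0.16), array weights (0.038) and Xist (0.17). Hk1 also turned in Glia against Autonomic with log2 of the value plus 16 (0.030) and Xist (0.64), and in Glia against Mesenchymal with the mean of all probe sets (-0.30). Aldoa in Mesenchymal turned with quantile normalization (0.031), cyclic loess (0.10), housekeeping centring (0.058), the mean of all probe sets (0.12), the Gapdh ratio (0.30) and Xist (0.034). Slc2a1 in Mesenchymal turned with cyclic loess (0.030) and housekeeping centring (0.00094). Slc2a3 in Mesenchymal turned with the mean of all probe sets (0.0093), cross-matching probe sets left out (0.37) and the Gapdh ratio (0.041). Aldoc turned in Mesenchymal with the Gapdh ratio (0.060) and in Glia against Autonomic with array weights (-0.13), and Hk2 in Glia against Autonomic with Xist (0.17). Without single arrays, Hk1 ranged from -0.79 to 0.47 in Glia, -0.51 to 0.41 in Autonomic, -0.80 to 0.035 in Mesenchymal, -0.74 to 0.51 in Glia against Autonomic, -0.37 to 0.89 in Glia against Mesenchymal and -0.085 to 0.78 in Autonomic against Mesenchymal. Aldoc ranged from -1.20 to 0.18, -1.24 to 0.14 and -0.64 to 0.75 in the 3 groups and -0.26 to 0.33 in Glia against Autonomic. In Mesenchymal, Slc2a1 ranged from -0.20 to 0.14, Slc2a3 from -0.48 to 0.068, Pfkl from -0.068 to 0.27 and Aldoa from -0.12 to 0.11, and Hk2 in Glia against Autonomic from -0.19 to 0.14.

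Of the isoform differences, the mean of all probe sets turned Slc2a1 minus Slc2a3 in Mesenchymal (-0.11), Hk1 minus Hk2 in Glia (-0.059) and Aldoa minus Aldoc in Autonomic (-0.23). Leaving out cross-matching probe sets turned the first (-0.46), and log2 of the value plus 16 turned Pfkl minus Pfkm in Glia (-0.40) and Aldoa minus Aldoc in Autonomic (-0.14). Without single arrays, the ranges that crossed 0 were -0.13 to 0.34 for Slc2a1 minus Slc2a3 in Mesenchymal, -0.64 to 0.83 and -0.23 to 0.80 for Hk1 minus Hk2 in Glia and Autonomic, -0.39 to 0.55 for Pfkl minus Pfkm in Glia, -0.85 to 0.30 for Pfkm minus Pfkp in Autonomic, and -1.13 to 0.035, -0.73 to 0.43 and -0.64 to 0.53 for Aldoa minus Aldoc in the 3 groups.

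The replicate number did not pair the samples. Deviations of the 24 same-numbered pairs of arrays correlated at -0.067 to 0.064, with 0 over 0.1, and 2 of 16 arrays correlated best with their own number. With the block, Slc2a3 in Glia had an adjusted p of 0.0194, Pfkl 0.0531 in Glia and 0.0175 in Autonomic, and the isoform tests by sign flips gave adjusted p of 0.375 or more.

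Leaving out Autonomic 1 and NCSCs 4 together was chosen after seeing the data, from the principal component and from the members' own levels, and supports nothing here. It gave 4 members in Glia against Mesenchymal and 2 in Autonomic against Mesenchymal, with 0, 6, 71 and 140 genes called in Mesenchymal against NCSCs, Glia against Autonomic, Glia against Mesenchymal and Autonomic against Mesenchymal. Signs turned for Aldoc (0.18 in Glia, 0.34 in Autonomic, 0.75 in Mesenchymal, -0.16 in Glia against Autonomic), Hk1 (0.42 in Autonomic), and in Mesenchymal Slc2a1 (0.14), Slc2a3 (0.068) and Aldoa (0.11).

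Hk1 and Aldoc have no value under the log2 filter of 5, and Aldoa none without cross-matching probe sets. Signal over background was not measured, so changes of the dim Hk1 and Aldoc probe sets are rough, and changes near a log2 size of 1 were mostly missed in the simulated comparison.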
